A study of Mus musculus with 8 samples.

Results

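The gene Bhlha9, which encodes a basic helix-loop-helix transcription factor, lies on mouse chromosome 11 at chr11:76672470-76673676 on the plus strand of GRCm38. The genes described here are its neighbours: all counted genes on chromosome 11 whose start lies within 2 Mb of the Bhlha9 start, without Bhlha9 itself and without 3 genes with ribosomal protein symbols. They number 151 of the 55573 genes counted, with 66 on the centromeric side and 85 on the telomeric side. Their expression was measured in C-LTMRs (C-fibre low-threshold mechanoreceptors) of adult mice, sorted by flow cytometry for GFP. The 8 libraries of polyadenylated RNA formed 4 groups of 2 biological replicates: wild-type (WT) males, bhlha9 knockout (KO) males, WT females and bhlha9 KO females. The GFP allele that marks the cells, the construction of the bhlha9 KO allele, the strain and the number of animals behind each library are not given in the sources used here.

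C-LTMRs are unmyelinated sensory neurons with cell bodies in the dorsal root ganglia and endings around hair follicles, and they respond to gentle touch. Removing a gene can change its neighbours when the deleted stretch, or a cassette left in its place, holds or replaces regulatory sequence. The DNA around a targeted gene can also still derive from the strain of the targeted cells after backcrossing. Genes close to a deleted gene are therefore commonly checked apart from the rest of the genome. Part of the region is known in medicine, because Pafah1b1 and Ywhae both lie in the conserved human interval deleted in Miller-Dieker lissencephaly.

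Bhlha9 checked the genotype labels. It lay between 127 and 161 CPM (counts scaled to a common library size) in the 4 WT libraries and between 0.156 and 0.47 CPM in the 4 KO libraries. The sex labels were taken from the sample titles and were not checked. Library totals ranged from 50919885 to 71956309 counts. All 8 C-LTMR markers were detected, and their sum lay between 4031 CPM in male KO replicate 1 and 7325 CPM in female KO replicate 2. Male KO replicate 1 also held the highest sum of 4 myelinated afferent markers, 1944 CPM against 241 to 485 CPM in the other libraries, and the highest sum of 6 glial markers, 3562 CPM against 380 to 2583 CPM. With whole sorted populations, fewer cells of a type and less RNA per cell cannot be told apart.

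No neighbour of Bhlha9 passed the test of KO against WT in either sex or in both together, and none did so for the difference between the sexes. Passing means a p below 0.05 in the quasi-likelihood F test of edgeR after Benjamini-Hochberg adjustment over all 22013 genes tested. The count was 0 of 109 tested neighbours in males, where 0.00454% of all tested genes passed, which is Bhlha9 alone. It was 0 of 109 in females, again beside a background of 0.00454%, and 0 of 109 with both sexes in 1 model, beside 0.00454%. For the difference between the sexes it was 0 of 109, beside a background of 0%. The lowest adjusted p of a neighbour was 1 in each comparison of KO with WT and 0.98 for the difference. The authors' deposited table for males lists 150 genes and the authors' deposited table for females lists 13, and neither lists a neighbour. At an unadjusted p below 0.05 in edgeR there were 2 neighbours in males (background 3.5%), 6 in females (3.81%), 4 with both sexes (3.56%) and 6 for the difference (4.73%). The 4 with both sexes were Mettl16, Cpd, Rflnb and Pipox.

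The promoters of 3 neighbours are shown because the values below turn on these genes. Gosr1 is, by the smallest start coordinate, the nearest gene with an entry in the RefSeq promoter table, and Cpd and Mettl16 were the neighbours whose KO libraries all lay above all WT libraries. Each sequence is the 250 bases upstream of a RefSeq transcript start in GRCm38.p6, read 5′ to 3′ on the strand of the gene. The end of each window lies inside the Ensembl gene bounds given below, for Gosr1 only at the outermost base. Capitals mark matches to CANNTG, the E-box core that basic helix-loop-helix proteins bind. Gosr1 is taken from chr11:76763579-76763828 on the minus strand, Cpd from chr11:76847009-76847258 on the minus strand and Mettl16 from chr11:74770613-74770862 on the plus strand.
Gosr1: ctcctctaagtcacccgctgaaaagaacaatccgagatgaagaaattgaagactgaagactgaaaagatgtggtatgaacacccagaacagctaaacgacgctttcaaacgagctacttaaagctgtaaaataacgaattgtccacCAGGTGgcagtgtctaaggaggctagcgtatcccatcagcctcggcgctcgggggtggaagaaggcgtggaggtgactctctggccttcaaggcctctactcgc
Cpd: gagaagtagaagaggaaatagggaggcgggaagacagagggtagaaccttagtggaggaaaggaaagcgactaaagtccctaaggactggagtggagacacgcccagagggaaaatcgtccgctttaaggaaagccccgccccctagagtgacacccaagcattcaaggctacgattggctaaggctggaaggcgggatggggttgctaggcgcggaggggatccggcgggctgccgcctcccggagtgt
Mettl16: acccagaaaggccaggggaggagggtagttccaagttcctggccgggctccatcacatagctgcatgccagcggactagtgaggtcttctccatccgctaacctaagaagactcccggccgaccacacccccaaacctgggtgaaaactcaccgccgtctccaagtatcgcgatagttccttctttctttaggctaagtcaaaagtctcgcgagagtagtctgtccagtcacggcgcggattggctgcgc

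The Gosr1 window held 1 match, CAGGTG, and the windows of Cpd and Mettl16 held none. CANNTG reads the same on both strands, so a match counts once. Among all 32851 promoters of the table, 66.2% held at least 1 match in such a window. Of the 151 neighbours, 88 had an entry, with 112 promoters, of which 57.1% held a match. A match is a description of these letters and not a binding site.

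Of the 151 neighbours, 109 passed the filter on low counts, 83 of them protein coding, and 70 had a mean of at least 5 CPM. Another 24 had 0 counts in every library, and 18 had some counts but did not pass. Among the 91 protein-coding neighbours 8 did not pass: Serpinf2, Tmigd1 and Sebox at 0 in all libraries, 1700016K19Rik, Cryba1, Slc13a2 and Vtn at no more than 0.104 CPM in their highest library, and Doc2b. A count of 0 allows a level of up to 0.0587 CPM in the shallowest library (3 counts, counting error only).

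Per kilobase of exon, the most abundant neighbours were Gm12338 at a mean of 979 RPKM (CPM per kilobase of exon) and Gm12346 at 276 RPKM. Both are processed pseudogenes, and their counts are uncertain because reads of a parent gene elsewhere could be placed on them. Trarg1 followed with 249 RPKM. It encodes a regulator of the traffic of the glucose transporter GLUT4 and is known from fat and from peripheral sensory neurons. Pitpna, a phosphatidylinositol transfer protein, had 238 RPKM, the membrane scaffold gene Flot2 had 224 RPKM and Rtn4rl1, a relative of the Nogo receptor, had 128 RPKM. The adaptor gene Ywhae, which encodes 14-3-3 epsilon, had 124 RPKM, and Serpinf1, which encodes the secreted pigment epithelium-derived factor, had 103 RPKM. On the CPM scale 18 neighbours had a mean of at least 100.

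**Figure D1:**
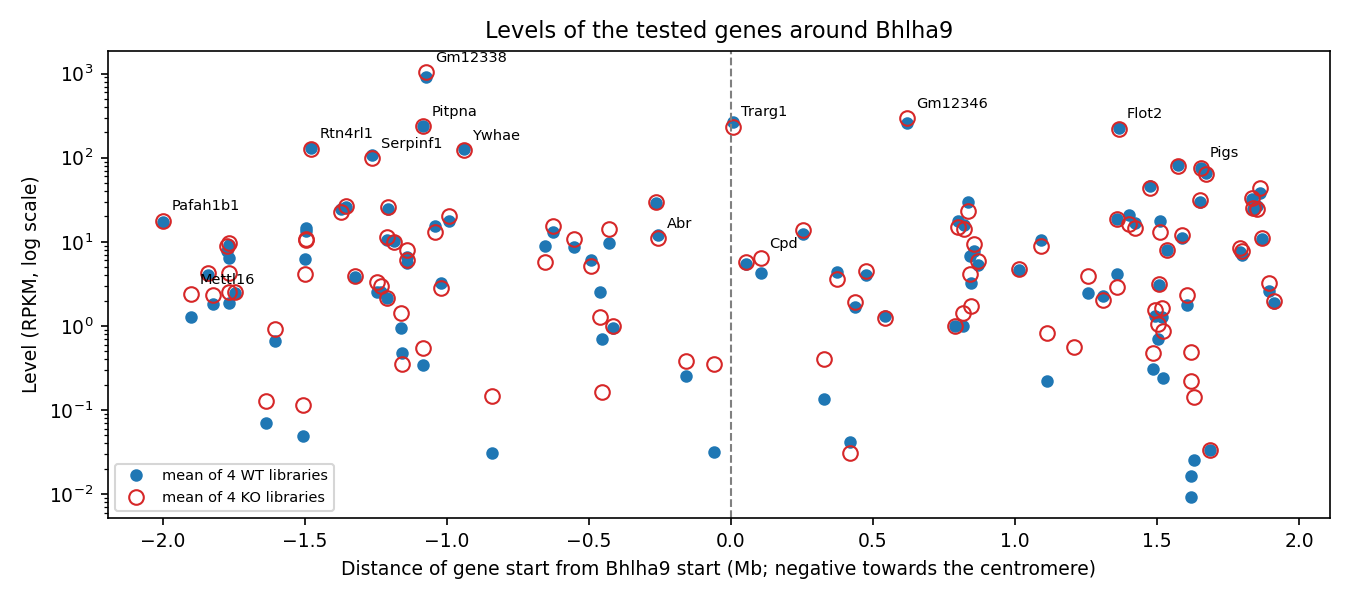
Mean level in RPKM (log axis) of each tested neighbour in the 4 WT libraries (filled points) and the 4 KO libraries (open circles) against the distance of its start from the Bhlha9 start in Mb, where a group mean of 0 has no point. WT and KO points overlie each other for the abundant genes, such as Trarg1 next to the deleted gene, and part for genes of low level.

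Trarg1, the closest neighbour, starts 7.34 kb from the Bhlha9 start on the same strand, at chr11:76679808-76698664. Its level was 807 and 739 CPM in the WT males, 681 and 684 CPM in the KO males, 1095 and 875 CPM in the WT females and 784 and 920 CPM in the KO females. The KO males lay below the WT males, whereas the female groups overlapped, and so did WT and KO over all 8 libraries. The means were 879 ± 154 CPM (SD, n = 4) in WT and 767 ± 113 CPM (SD, n = 4) in KO. The log2 fold change with both sexes was -0.19 with a standard error (SE) of 0.11, and edgeR gave an adjusted p of 1. The 95% interval of the fold ran from 0.734 to 1.04.

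Gosr1, a SNARE protein of the Golgi, lies on the telomeric side at chr11:76726602-76763579. The gene has its near end 54.1 kb and its Ensembl transcription start 91.1 kb from the Bhlha9 start. Its levels were 20.6 and 27.8 CPM in WT males, 22.8 and 40.2 CPM in KO males, 19.9 and 24.6 CPM in WT females and 16.5 and 19 CPM in KO females. The male groups overlapped, and the KO females lay just below the WT females. The log2 fold change was 0.03 (SE 0.26) with both sexes, and the 95% interval of the fold ran from 0.669 to 1.55.

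On the centromeric side the nearest tested genes by smallest start coordinate were barely detected. The long noncoding RNA gene Gm26780, 58 kb away on the strand opposite to Abr, had 0 counts in 5 libraries, 0.0157 CPM in male WT replicate 2, 0.301 CPM in female WT replicate 2 and 3.55 CPM in male KO replicate 1. It shares 1.12% of its exon bases with Abr, and the counting used no strand. The processed pseudogene Gm12341, 158 kb away, lay between 0.077 and 0.352 CPM in all libraries.

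Abr regulates the small GTPase Rac, and its Ensembl transcription start is its near end, 48.9 kb from the Bhlha9 start and nearer than that of Gm26780. It lay at 112 and 157 CPM in WT males, 107 and 120 CPM in KO males, 161 and 100 CPM in WT females and 133 and 126 CPM in KO females. The genotypes overlapped in each sex, with a log2 fold change of -0.13 (SE 0.18) for both. Timm22, which encodes the channel of a protein import complex of the inner mitochondrial membrane, starts 266 kb away. Its levels ranged from 71.4 to 111 CPM in WT and from 76.1 to 111 CPM in KO, and the log2 fold change was 0.07 (SE 0.18).

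Blmh, a cytoplasmic cysteine protease gene 252 kb away, is named here after its values were seen. It fell on opposite sides in the sexes, with 91.4 and 80.1 CPM in WT males against 64.6 and 79.5 CPM in KO males, and 50.9 and 72.2 CPM in WT females against 78.3 and 102 CPM in KO females. The difference between the sexes was -0.81 (SE 0.35) in log2 and did not pass in edgeR, with an adjusted p of 0.98. Slc6a4, the serotonin transporter gene 326 kb away and also named after its values were seen, had counts in 2 libraries, with 2.43 CPM in male WT replicate 1 and 7.36 CPM in male KO replicate 1.

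**Figure D2:**
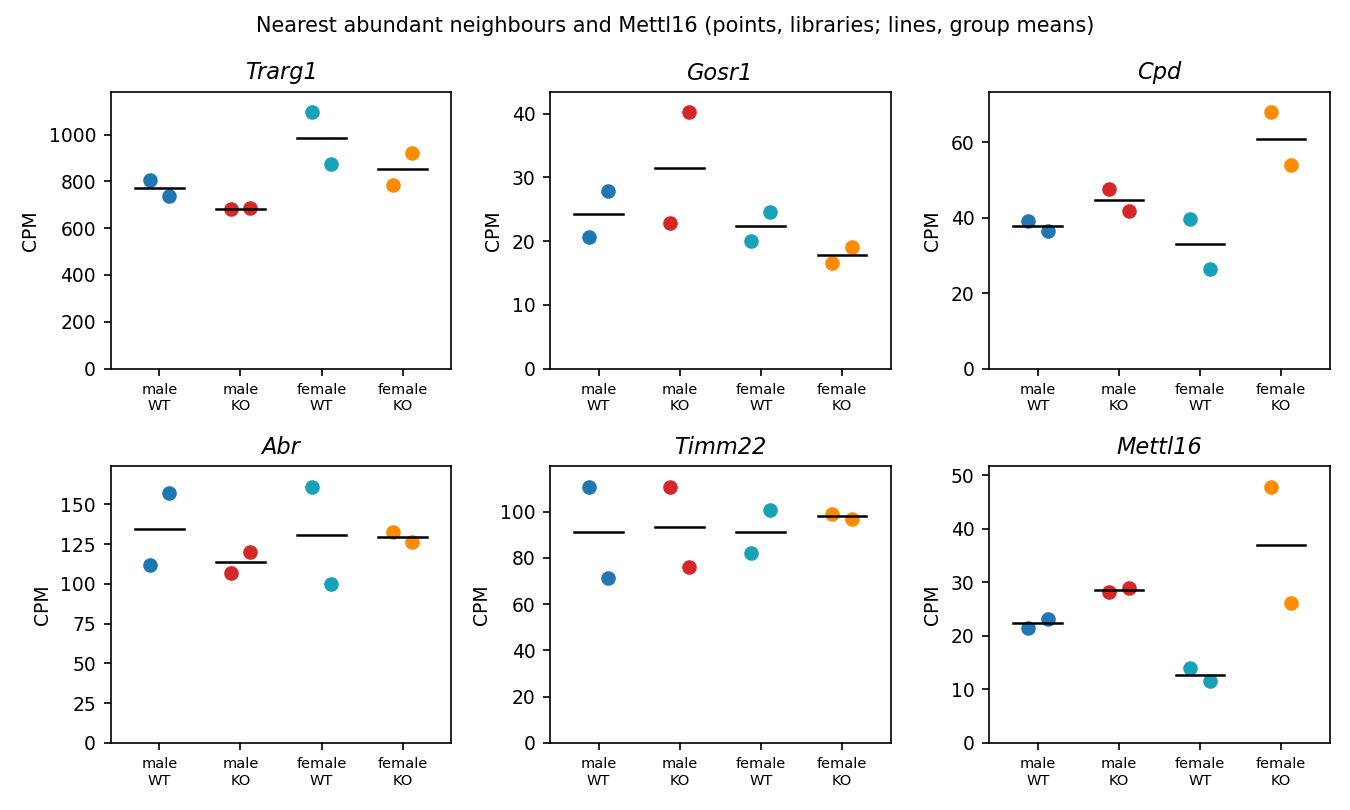
CPM of 5 neighbours near Bhlha9 and of Mettl16 in each library (points) with group means (lines, n = 2), each panel starting at 0. Trarg1, Gosr1, Abr and Timm22 overlap between KO and WT over the 8 libraries, while in Cpd and Mettl16 every KO point is above every WT point.

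In Cpd and Mettl16 all 4 KO libraries lay above all 4 WT libraries. These were 2 of 109 tested neighbours, or 1.83%, against a background of 0.936% of all tested genes. No neighbour had all KO libraries below all WT libraries (background 0.895%). The same 2 genes make up the count among the 70 neighbours with a mean of at least 5 CPM, where the backgrounds were 0.961% and 0.945%.

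Cpd, at chr11:76778424-76847018, has its near end 106 kb and its Ensembl transcription start 174.5 kb from the Bhlha9 start. It encodes carboxypeptidase D, which trims peptides in the trans-Golgi network. It had 39.1 and 36.6 CPM in WT males, 47.5 and 41.6 CPM in KO males, 39.7 and 26.4 CPM in WT females and 67.9 and 54 CPM in KO females. The highest WT library, a female one, lay just below the lowest KO library, a male one. The means were 35.4 ± 6.17 CPM (SD, n = 4) in WT and 52.8 ± 11.3 CPM (SD, n = 4) in KO. The log2 fold change was 0.56 (SE 0.21) with both sexes, 0.24 (SE 0.26) in males and 0.88 (SE 0.26) in females. None of the 3 passed in edgeR, with adjusted p values of 1, and the difference between the sexes of -0.65 (SE 0.37) did not pass either, with an adjusted p of 1.

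Mettl16 encodes an RNA methyltransferase that places N6-methyladenosine on U6 snRNA and on the mRNA of a methionine adenosyltransferase. It lies near the centromeric edge of the window, 1902 kb from the Bhlha9 start, at chr11:74770830-74828525. Its levels were 21.4 and 23.2 CPM in WT males, 28.2 and 29 CPM in KO males, 14.1 and 11.5 CPM in WT females and 47.9 and 26.2 CPM in KO females. The female groups were further apart than the male groups, and the 2 female KO libraries also differed from each other. The log2 fold change was 0.95 (SE 0.31) with both sexes, 0.36 (SE 0.33) in males and 1.54 (SE 0.34) in females, each with an edgeR adjusted p of 1. In the Wald test of DESeq2, run as an alternative, Mettl16 passed in females with an adjusted p of 0.00251, where 1.19% of genes passed. It was the only neighbour to do so there, and in males DESeq2 called 0 neighbours (background 1%). The difference between the sexes was -1.18 (SE 0.47), with an edgeR adjusted p of 0.98.

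A DESeq2 call with both sexes together, where 0.709% of genes passed, fell on Doc2b. This gene for a calcium sensor of vesicle release is named after its values were seen and did not pass the filter for edgeR. Its only counts were in female WT replicate 2, at 3.33 CPM, and the DESeq2 adjusted p of 5.3e-08 rests on that library. For the difference between the sexes DESeq2 called 0 neighbours (background 1.44%).

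In males, 20 of 109 tested neighbours had both KO libraries above both WT libraries, where the background was 14.5%, and 13 had both below, where it was also 14.5%. With a mean of at least 5 CPM these were 11 and 11 of 70, beside backgrounds of 13.4% and 15%. The largest changes of such genes were all downward. Myo1c, an unconventional myosin, had 16.1 and 42.3 CPM in WT males and 11.8 and 12.9 CPM in KO males, with a log2 fold change of -1.24 (SE 0.57), or -0.42 without male WT replicate 2. The female groups overlapped, with 9.93 and 16.7 CPM in WT and 33.1 and 16.1 CPM in KO (0.89, SE 0.57), and the difference between the sexes did not pass in edgeR (adjusted p of 0.98). Gemin4, a subunit of the complex that assembles spliceosomal snRNPs, had 8.37 and 6.55 CPM against 1.91 and 4.93 CPM, a log2 fold change of -1.13 (SE 0.69). Of its exon bases 91.3% overlap Dbil5, Fam57a and Glod4, so its counts are shared with those genes.

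Rflnb, a filamin-binding protein that shapes actin networks, was 1 of the 2 neighbours with an unadjusted p below 0.05 in males. It had 35.8 and 25.6 CPM in WT males and 14.2 and 17.3 CPM in KO males, with a log2 fold change of -0.96 (SE 0.35). In females, 23.3 and 41.7 CPM in WT stood beside 25.3 and 24.6 CPM in KO, and these groups overlapped. The other neighbour was Pipox, a peroxisomal oxidase gene named after its values were seen, with 4.31 and 1.19 CPM in the KO males and 0 counts in the other 6 libraries. Among the upward separations in males, Aldoc had a log2 fold change of 0.61 (SE 0.27) and Slc46a1 of 0.54 (SE 0.26), and Rab34, a small GTPase of the Golgi and cilium with a mean of at least 5 CPM in males but not over all libraries, had 0.82 (SE 1.03).

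In females, 22 of 109 tested neighbours had both KO libraries above both WT libraries (background 14.2%) and 20 had both below (background 15.1%). With a mean of at least 5 CPM there were 16 and 13 of 70, beside backgrounds of 14.5% and 16.2%. After Mettl16, the upward separations with the largest fold changes were Nek8, a kinase of the primary cilium, at 0.94 (SE 0.48) and Cpd at 0.88 (SE 0.26). Nek8 had 3.88 and 6.14 CPM in WT and 11.9 and 7.37 CPM in KO. The largest downward separation was Nsrp1, a splicing regulator of nuclear speckles, with 17 and 20.1 CPM in WT females and 11.8 and 8.9 CPM in KO females, a log2 fold change of -0.85 (SE 0.32). Eral1, which encodes a chaperone of mitochondrial ribosomal RNA, followed with -0.50 (SE 0.23), from 49.8 and 50.9 CPM to 34.1 and 37.1 CPM.

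**Figure D3:**
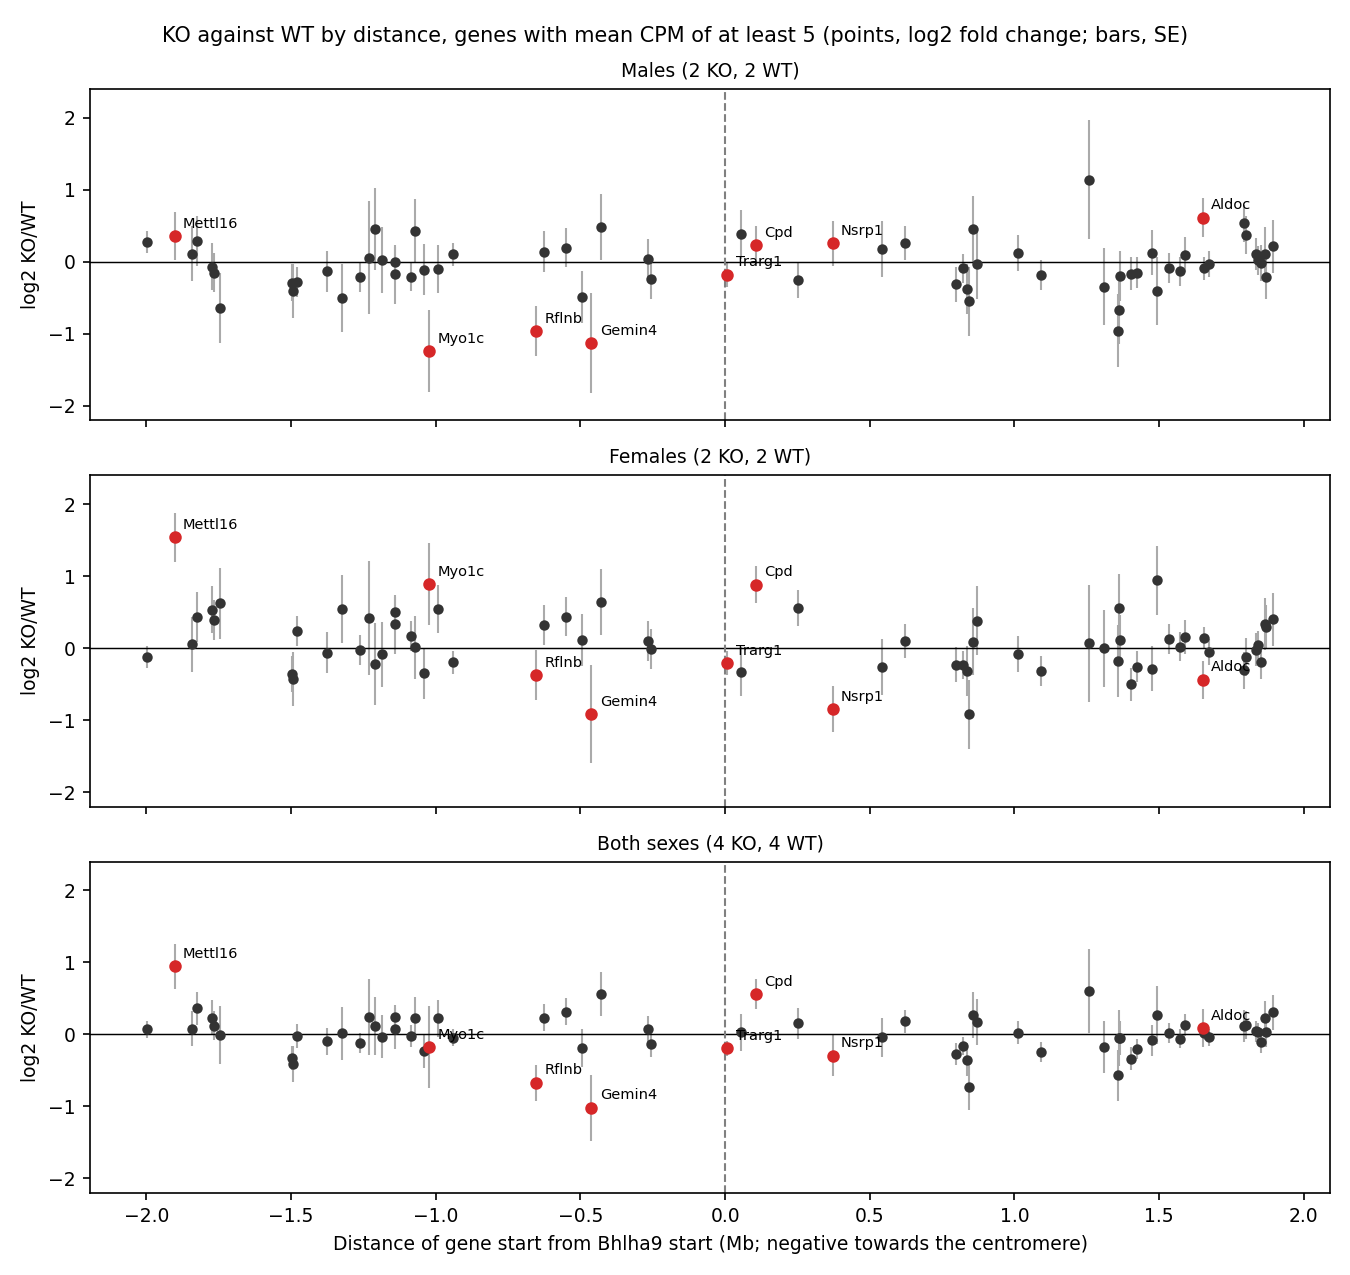
Log2 fold change of KO over WT, with its SE as bars, against distance from the Bhlha9 start in Mb for the 70 neighbours with a mean of at least 5 CPM, in males, in females and with both sexes; red points carry their gene names. Trarg1 beside the deleted gene has small fold changes, with a value of -0.19 for both sexes, and the points furthest from 0 are spread over the window.

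Median fold changes did not rise or fall steadily with distance from Bhlha9. Over the 109 tested neighbours the median log2 fold change was 0.09 in males, 0.05 in females and 0.07 with both sexes, beside 0.02, 0.00 and 0.01 over all tested genes. Among the 70 with a mean of at least 5 CPM the medians were -0.08, 0.03 and 0.02, beside 0.00, -0.01 and 0.00. By distance, the medians of these better measured genes with both sexes were 0.03 for 3 genes under 250 kb, -0.13 for 7 genes from 250 to 500 kb and -0.04 for 13 genes from 500 kb to 1 Mb. They were -0.05 for 26 genes from 1 to 1.5 Mb and 0.08 for 21 genes from 1.5 to 2 Mb. The 39 such genes in the next stretch of chromosome 11, from 2 to 5 Mb, had a median of -0.02, as had the 815 genes of the rest of that chromosome. Classes go by smallest start coordinate, so the class under 250 kb leaves out Abr, which fell in that from 250 to 500 kb. The Ensembl transcription start of Abr lies 48.9 kb from the Bhlha9 start, and its log2 fold change with both sexes was -0.13.

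The median absolute log2 fold change of the 70 neighbours was 0.21 in males, 0.29 in females and 0.17 with both sexes, beside 0.22, 0.23 and 0.16 over all tested genes of that level. By distance, with both sexes, it was 0.19 under 250 kb, 0.19 from 250 to 500 kb and 0.23 from 500 kb to 1 Mb. It was 0.18 from 1 to 1.5 Mb, 0.09 from 1.5 to 2 Mb and 0.18 in the stretch from 2 to 5 Mb. The difference between classes was not tested. A change of more than 1 in log2 was reached by 3 neighbours in males (4.29%, against 5.27% of all), by 1 in females (1.43%, against 4.82%) and by 1 with both sexes, Gemin4 (1.43%, against 2.02%). Over these 70 genes, which share the 8 libraries, the Spearman correlation between distance and absolute log2 fold change was -0.16 in males, -0.11 in females and -0.24 with both sexes. Between mean CPM and absolute log2 fold change it was -0.35, -0.47 and -0.31, so that fold changes were larger among the less abundant genes.

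**Figure D4:**
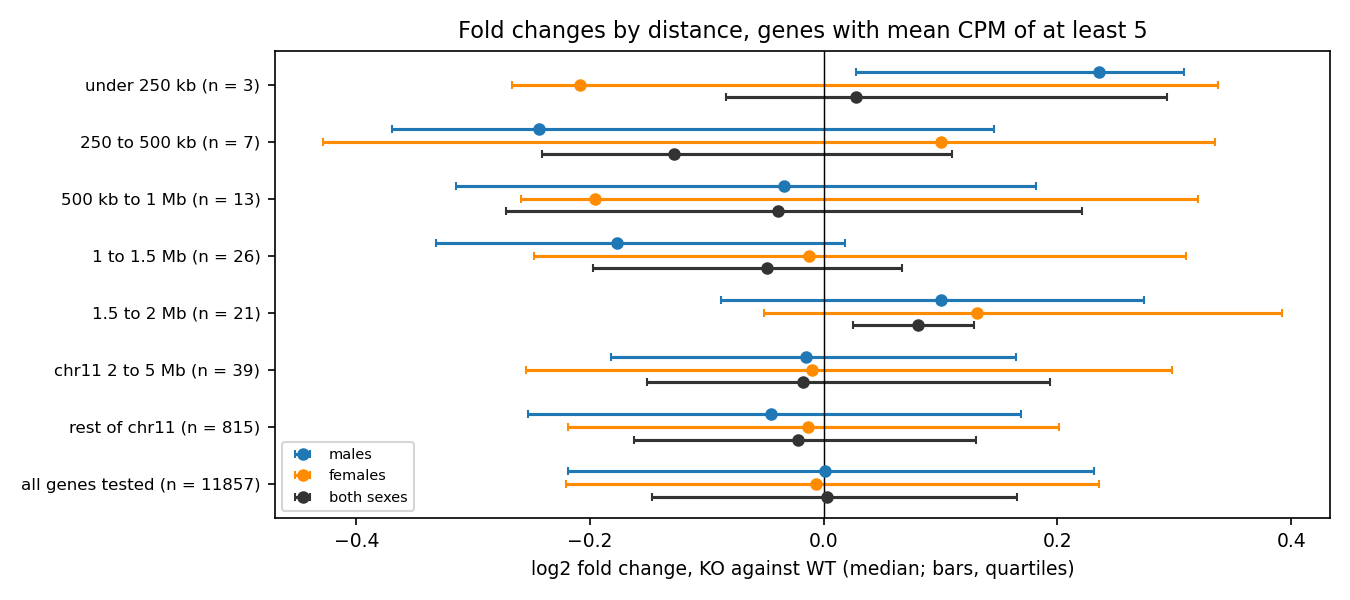
Median log2 fold change of KO over WT (points) with the quartiles (bars) for genes with a mean of at least 5 CPM, by distance class from the Bhlha9 start, in males, females and both sexes, beside the rest of chromosome 11 and all tested genes. The quartile bars of both sexes include 0 in each class except that from 1.5 to 2 Mb, with a median of 0.08.

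At the edge of the window, the outermost tested neighbour on the centromeric side was Pafah1b1, 1999 kb away, with a log2 fold change of 0.07 (SE 0.12) for both sexes. The first tested gene outside was Cluh, 2023 kb away, at -0.02 (SE 0.14). On the telomeric side the pseudogene Gm11196 at 1913 kb, with a mean of 0.758 CPM, had 0.12 (SE 0.76), and Ccnq at 2078 kb, outside, had 0.33 (SE 0.23). The 32 centromeric neighbours with a mean of at least 5 CPM had a median of 0.04 with both sexes and the 38 telomeric ones a median of 0.02.

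How small a change the data could show differed between genes. For 56 of the 70 neighbours the 95% interval of the fold with both sexes lay between 0.5 and 2. This held for 37 of 70 in males alone and for 31 in females alone, where each genotype has 2 libraries. The narrowest interval belonged to Pigs, part of the enzyme complex that attaches GPI anchors, with 173 to 206 CPM over all libraries and a fold between 0.855 and 1.21. At the other end Sez6, a synaptic membrane protein gene named after its values were seen, ran from 3.27 CPM in male WT replicate 1 to 34.4 CPM in male KO replicate 1. The ratio of highest to lowest library was 10.5 for Sez6 and 1.23 for Pigs, and it was under 2 for 36 of the 70.

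By function, 11 neighbours were on the list for RNA processing, translation and decay. None of these passed, 5 of 11 had a positive log2 fold change with both sexes, and their median was -0.01, beside 0.01 over all tested genes. Prpf8, the core protein of the spliceosome, ranged from 43.9 to 109 CPM in WT and from 62 to 94.3 CPM in KO (-0.03, SE 0.30). Supt6, a histone chaperone of elongating RNA polymerase, ranged from 42.6 to 68.7 CPM in WT and from 51.6 to 62.1 CPM in KO (0.02, SE 0.14). Mettl16 was the member of this list whose genotypes did not overlap.

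The list for membrane traffic held 18 neighbours, of which none passed and 11 had a positive fold change, with a median of 0.03. Pitpna had 1014 and 1136 CPM in WT males, 774 and 1085 CPM in KO males, 951 and 862 CPM in WT females and 935 and 1103 CPM in KO females. Male KO replicate 1 was the lowest of its 8 libraries, and the genotypes overlapped, with a log2 fold change of -0.02 (SE 0.15). Flot2 ranged from 541 to 741 CPM in WT and from 400.4 to 783 CPM in KO, again lowest in male KO replicate 1 (-0.05, SE 0.24). Pigs gave 0.03 (SE 0.11).

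Among 15 signalling adaptors, kinases and GTPase regulators none passed, and 8 of 15 had a positive fold change with a median of 0.13. Rtn4rl1 had 452 and 501 CPM in WT males, 323 and 461 CPM in KO males, 467 and 393 CPM in WT females and 489.5 and 527 CPM in KO females. Its female KO libraries lay above the female WT libraries while the male groups overlapped, and the log2 fold change was -0.02 (SE 0.16). Ywhae ranged from 295 to 356 CPM in WT and from 290.3 to 364 CPM in KO, with a log2 fold change of -0.04 (SE 0.12).

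The 7 genes for cytoskeleton and cell division had a median of -0.04, with 3 positive and none passing. Pafah1b1, which encodes the dynein regulator LIS1, stayed between 142 and 189 CPM in all 8 libraries. Myo18a, an unconventional myosin of the Golgi, ranged from 146 to 215 CPM in WT and from 113 to 165 CPM in KO (-0.25, SE 0.14). Ssh2, a phosphatase that activates the actin-severing protein cofilin, had -0.04 (SE 0.27).

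None of the 8 genes for transcription, chromatin and DNA repair passed, 4 had a positive fold change and the median was -0.04. Rpa1, the large subunit of the single-stranded DNA-binding complex, ranged from 114 to 158 CPM in WT and from 99.99 to 164 CPM in KO (-0.10, SE 0.19). Poldip2, a partner of DNA polymerase delta, ranged from 88.2 to 96.8 CPM in WT and from 79.7 to 111 CPM in KO (0.03, SE 0.13). Trp53i13, a p53-inducible gene of which 15.2% of exon bases overlap Abhd15, had -0.35 (SE 0.23).

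Of 7 genes for transmitter release, uptake and transport 5 were tested and none passed. With both sexes 5 of 5 had a positive log2 fold change, with a median of 0.25, beside 11320 of 22013 tested genes, but in males and in females the count was 3 of 5 each. Slc6a4, 1 of the 5, has counts in 2 male libraries only. Slc43a2, an amino acid transporter, ranged from 58 to 72.8 CPM in WT and from 66.9 to 103 CPM in KO, overlapping between genotypes (0.25, SE 0.16). Srr, the racemase that makes D-serine, had 0.12 (SE 0.20), and 29.96% of its exon bases overlap Smg6 and Tsr1. Slc46a1, the proton-coupled folate transporter, had 0.11 (SE 0.22).

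The 10 genes for mitochondria, redox and metabolism, which include Trarg1, Timm22 and Blmh, had a median of -0.06, with 5 positive and none passing. Of 6 secreted proteins 2 were tested and neither passed. Serpinf1 ranged from 190 to 309 CPM in WT and from 219 to 251 CPM in KO (-0.12, SE 0.14), and Proca1 was under 0.8 CPM except for 5.44 CPM in male KO replicate 1. The 60 noncoding genes and pseudogenes included 26 that were tested, of which only 7 had a mean of at least 5 CPM. Of the 26, none passed and 19 had a positive fold change with both sexes, beside 11320 of 22013 tested genes, with a median of 0.16. The 11 miRNA genes lie among the 60, and the 3 tested, Gm47300, Mir22 and Mir7653, share from 36.4% to 100% of their exon bases with host or neighbouring genes, so their counts are not measures of mature miRNAs. Gm12338 ranged from 133 to 217 CPM in WT and from 103 to 269 CPM in KO, and Gm12346 from 484 to 711 CPM in WT and from 561 to 746 CPM in KO.

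Exons of 46 neighbours overlap those of another counted gene, and 38 of these were tested. Among the tested ones 25 share more than 10% of their exon bases. Reads on shared bases were counted for each gene, without regard to strand.

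Some neighbours separated in opposite directions in the sexes. Both KO libraries were above both WT libraries in males and below them in females in 8 of 109 tested neighbours, or 7.34%, against a background of 2.63%. The reverse held for 2 of 109, Smyd4 and Blmh, against 2.14%, and the same direction in each sex held for 2 of 109, Cpd and Mettl16, against 3.92%. The 8 genes were Pafah1b1, Snord91a, Nxn, Nsrp1, Coro6, Aldoc, Slc46a1 and Gm11196, and the counts were taken after their values were seen. Of these 8, Snord91a, Gm11196 and Nxn had means of only 0.497, 0.758 and 3.14 CPM, and Coro6 was low as well. In Pafah1b1 the highest library was only 1.33 times the lowest. The background share was not taken for genes with a mean of at least 5 CPM. None passed the edgeR test of the difference, in which the lowest adjusted p was 0.98.

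Aldoc, which encodes the brain-type aldolase of glycolysis, had 97.9 and 59.6 CPM in WT males, 124 and 117 CPM in KO males, 107 and 128 CPM in WT females and 77.7 and 95.9 CPM in KO females. The difference between the sexes in its log2 fold change was 1.05 (SE 0.38). Nxn, the redox enzyme nucleoredoxin, had 1.05 and 2.01 CPM in WT males, 5.96 and 5.53 CPM in KO males, 2.63 and 6.4 CPM in WT females and 1.31 and 0.239 CPM in KO females. Coro6, an actin-binding coronin, showed the same order of groups, with 1.13 and 3.41, 5.04 and 5.79, 1.61 and 5.83, and 0.9 and 0.154 CPM. In Aldoc and Nxn every library of the KO males and WT females lay above every library of the WT males and KO females, while in Coro6 female WT replicate 1 lay below male WT replicate 2.

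Levels of markers of other cells also differed between these groups. The summed level of 4 vascular and fibroblast markers was 0.127 and 1.41 CPM in WT males, 39.4 and 3.76 CPM in KO males and 25 and 24.3 CPM in WT females, and all 4 (Pecam1, Cldn5, Col1a1 and Dcn) were at 0 in both KO females. The sum of 4 peptidergic neuron markers, all detected, was 265 and 333 CPM in WT males, 1033 and 1639 CPM in KO males, 740 and 1347 CPM in WT females and 1148 and 234 CPM in KO females. All 6 glial markers were detected, and their sum ranged from 380 to 2122 CPM in WT males, from 2232 to 3562 CPM in KO males, from 2027 to 2583 CPM in WT females and from 816 to 2181 CPM in KO females. Single genes carried much of the vascular and fibroblast sum. Dcn had 25 CPM in female WT replicate 1 and 27 CPM in male KO replicate 1, and Cldn5 had 16.1 CPM in female WT replicate 2. Col1a1 was no higher in WT females (0 and 0.0633 CPM) than in WT males (0.127 and 0.55 CPM). Immune and red blood cell sums overlapped between KO and WT in each sex, and nonpeptidergic and myelinated afferent sums did so in females only. The part of these markers in the 8 genes was not tested.

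**Figure D5:**
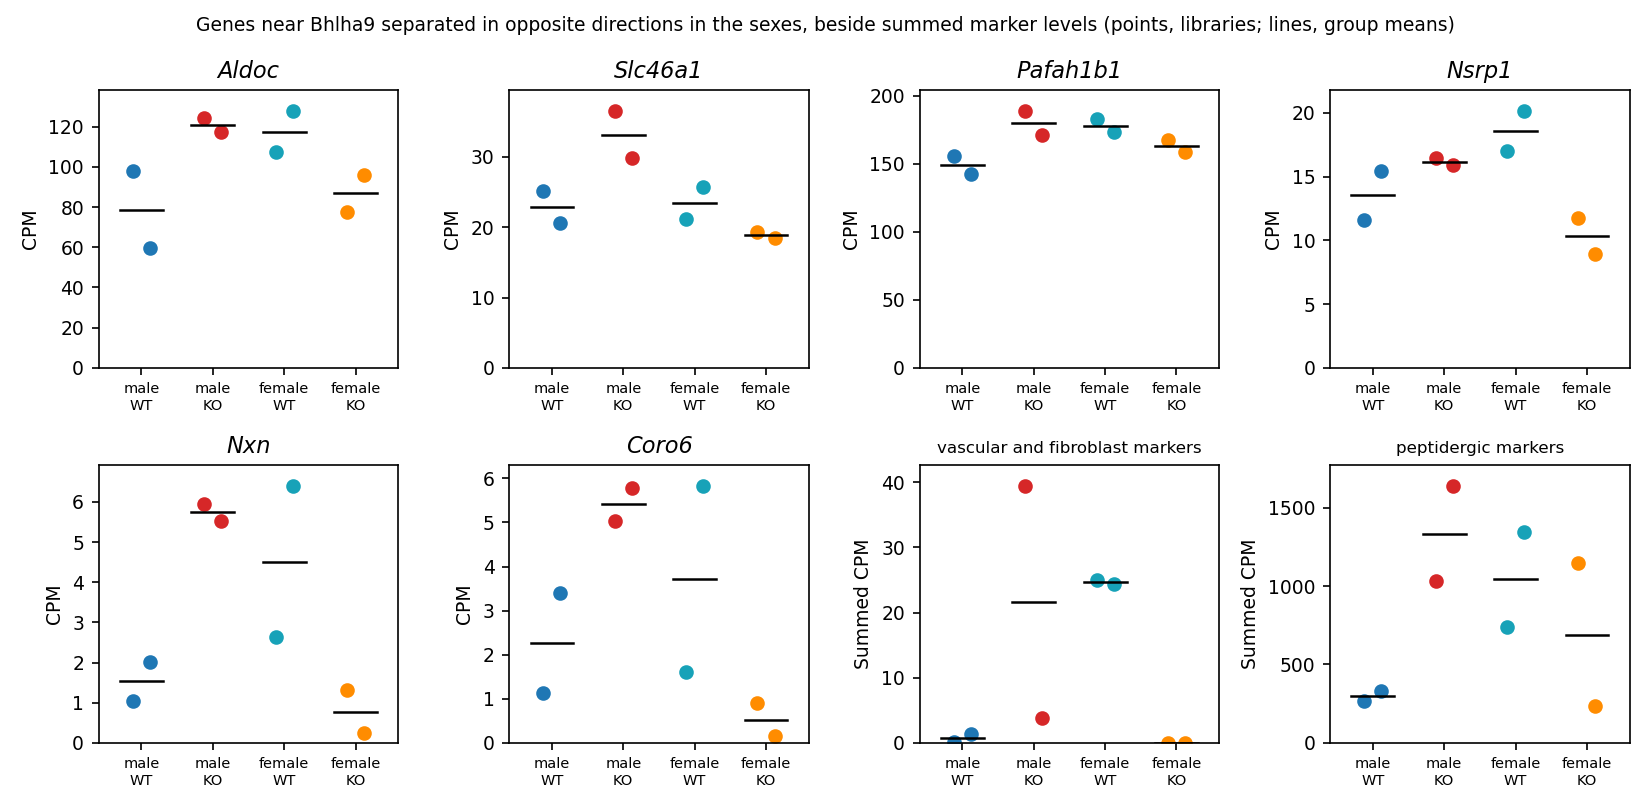
CPM in each library (points) with group means (lines, n = 2) of 6 of the 8 neighbours that were higher in male KO and lower in female KO, and summed CPM of the 4 vascular and fibroblast markers and of the 4 peptidergic markers, each axis starting at 0. Nxn and Coro6 are under 7 CPM in all libraries, and the vascular and fibroblast sum is 0 in both KO females.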

How the data were processed

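Per the labels' protocols, SMART-Seq v4 turned polyadenylated RNA into full-length cDNA, which was sequenced after Nextera XT tagmentation without molecular identifiers, so counts include PCR copies. The authors deposited integer read counts per gene, which featureCounts 1.6.1 made from the exons of GRCm38 (Ensembl release 97), ignoring strand and counting a read for each gene it touched, per the file headers. The submitters' processing notes also list bcl2fastq 2.17.1.14, DESeq2 1.14.1 and Subread 1.6.4. No source used here gives the aligner. The authors' deposited tables hold, per the file headers, a mean normalized count signal, log2 fold changes with standard errors, a Wald test score and raw and adjusted p-values. They list only genes past the authors' threshold. They served only to look up the neighbours.

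Genes were kept with filterByExpr, leaving 22013, and tested with the two-sided quasi-likelihood F test of edgeR 4.0.16 (R 4.3.3, robust, TMM factors from 0.979 to 1.022). A fit of 4 groups (4 residual degrees of freedom) gave the comparisons in each sex and their difference, and an additive fit of sex and genotype gave both sexes. P-values were adjusted over all tested genes, at a threshold of 0.05. An SE is the absolute log2 fold change over the root of F, and 95% intervals used the moderated degrees of freedom. CPM used TMM-scaled library sizes, and RPKM divided CPM by the deposited exon length. Symbols came from GENCODE M21 by identifier, for all 151 neighbours. Distance is between smallest start coordinates. The fit was tested on simulated counts.

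The neighbours, the role lists, the marker lists and the naming rule were chosen with earlier results of these data known. The rule names the 3 nearest tested genes on each side, the genes whose 4 KO and 4 WT libraries do not overlap, the 3 highest and 3 lowest separated genes per sex (mean of at least 5 CPM in that sex), the 6 most abundant per length and up to 3 genes per role list. Other names were chosen after their values were seen. Alternatives were the DESeq2 1.42.0 Wald test, other scalings and filters, genes without exon overlap, a replicate term and leaving out each library.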

Additional observations from a re-analysis of the deposited data

How the results depend on the processing

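The number of neighbours passing stayed at 0 in each comparison with no filter, with the replicate number as a block and without each library in turn. With DESeq2 it was 1 in females (Mettl16, log2 fold change 1.55) and 1 with both sexes (Doc2b), which the filter for edgeR had left out. The median log2 fold change of the neighbours lay between -0.059 and 0.055 in males, between -0.03 and 0.10 in females and between 0.01 and 0.09 with both sexes when each library was left out. The lowest male value, -0.059, came without male KO replicate 2. Restricting males to a mean of at least 5 CPM gave -0.077. Of the 70 neighbours at that level, 11 separated upward and 11 downward in males, beside backgrounds of 13.4% and 15%. In females 16 separated upward and 13 downward, beside 14.5% and 16.2%. Separated here means no overlap between the KO and WT libraries of that sex. The cause of the median's move was not tested. Replicate numbers were not treated as pairs, as deviations of same-numbered libraries of 2 groups had correlations between -0.10 and 0.11. These correlations cannot show how the samples were collected, and the sample titles do not say whether the numbers pair them. With the replicate number as a block the medians were 0.05, 0.03 and 0.06 in males, females and both sexes, and the block changed no call. Over 13 alternatives the log2 fold change of Mettl16 with both sexes lay between 0.64 and 1.1, with an edgeR adjusted p from 0.949 to 1, and that of Cpd between 0.38 and 0.67, also from 0.949 to 1. With 2 libraries per group and a biological coefficient of variation of 76.6%, small changes in 1 sex were not detectable at this replication. The limit was not confined to small changes, as edgeR passed 1 of 22013 genes in each comparison of KO with WT. Mettl16 did not pass in females at a log2 fold change of 1.54. A count of 0 neighbours passing therefore does not show that no neighbour changed, in 1 sex or with both sexes.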
